A study of Mus musculus with 12 samples.

Results

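The WNT pathway genes measured in cultured mouse ovarian follicles comprised ligands, receptors, secreted inhibitors and intracellular mediators. They were found by a rule on gene symbols (Wnt, Fzd, Dvl, Axin, Apc, Lrp5 and Lrp6, Lef1 and Tcf7, Dkk, Sfrp, Rnf43, Znrf3, Porcn, Wls, Csnk1, Gsk3, Tle1 to Tle6 and Bcl9). The rule was chosen with earlier results of these data known. Of 11806 genes that the authors' deposited table lists, 43 matched. Of the 40 that have an adjusted p there, 0 passed the threshold of 0.05 between vitrified and fresh follicles, and 3 genes with low totals have none. The lowest adjusted p of these 40 was 0.32, for the casein kinase gene Csnk1d, higher by 1.30-fold, per the authors' deposited table. The scaffold gene Axin1, lower by 1.83-fold, came next at 0.57, and Dvl3 stood at 0.58, so none was close to a call.

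WNT proteins are lipid-modified secreted ligands that bind frizzled receptors and the LRP5 or LRP6 co-receptor. Without ligand, a complex of AXIN, APC, casein kinase 1 and GSK3 phosphorylates beta-catenin and marks it for destruction. With ligand, dishevelled proteins disable that complex, and beta-catenin enters the nucleus, binds TCF and LEF factors and displaces TLE co-repressors. In the ovary the pathway is known for its part in female gonad development and in the granulosa cell's response to follicle-stimulating hormone.

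Each library came from 1 follicle of a 16-day-old CD-1 mouse, an outbred stock, and there were 6 fresh and 6 vitrified follicles. Vitrification is cryopreservation in which water sets to a glass and not to ice. Follicles of both groups were held singly in 0.5% alginate and grown for 8 days in medium with 10 mIU/mL recombinant follicle-stimulating hormone, insulin, transferrin and selenium. The labels do not say when the vitrified follicles were frozen and warmed or which follicles shared a mouse, so p-values take the follicles as independent and the spread they measure may be partly technical. A whole follicle was lysed, so fewer cells of a type and less RNA per cell cannot be told apart.

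All totals, fold changes and p-values below are those of the authors' deposited table: a total per gene pooled over the 12 libraries, with the fold change and p-value of that gene. No level per follicle is given, so the spread is known only through the p-value. From each log2 fold change and its p a standard error and a 95% interval were derived. Every interval and standard error below is such a derived value, and none was given by the authors. The totals of all genes summed to 23783958, and the members held 0.104% of that sum. The highest marker total was 1121843, for the granulosa gene Inha, per the authors' deposited table. Of 12 granulosa markers 11 were in the table, with a median log2 fold change of -0.02. Of 11 theca markers 10 were tested, 6 of them higher, with a median of 0.28. At an unadjusted p under 0.05 there were 3 of 11 granulosa markers (27.3%), 1 higher and 2 lower, against 7.02% of all tested genes. At that p there were 3 of 10 theca markers (30.0%), all higher in value. The theca markers were Insl3, a hormone of theca cells, at 6.52-fold (p = 0.0012, adjusted p = 0.14), Star, of steroid synthesis, at 3.02-fold (p = 0.00082, adjusted p = 0.11), and Aldh1a1, a retinal dehydrogenase, at 2.28-fold (p = 0.00068, adjusted p = 0.098), per the authors' deposited table. Cyp17a1, which theca cells use to make androgens, stood at 2.76-fold higher (p = 0.057, adjusted p = 0.74), per the authors' deposited table, and no other theca marker differed by 2-fold. The 4 theca markers lower in value were Acta2 at -0.67, Nr2f2 at -0.21, Ptch1 at -0.15 and Hsd3b1 at -0.11 on the log2 scale. Hsd3b1 had the highest theca total, 435485. The granulosa markers at an unadjusted p under 0.05 were Fshr at 0.67, Inhbb at -0.57 and Fst at -0.82, per the authors' deposited table. All 7 tested oocyte markers were higher in value, with a median of 0.58 and a lowest unadjusted p of 0.13. All 5 tested endothelial markers were lower, with a median of -1.25 and a lowest unadjusted p of 0.069. Over all tested genes 46.8% were higher, and no shift of a cell type is read from these counts. Of 6 stroma markers 5 were tested, with a median of 0.08. Only 1 of 6 immune markers was in the table, Lyz2 at -1.05, and only 1 of 7 surface epithelium markers was tested, Krt8 at 0.22. No marker in these lists passed the threshold (0 in each list), and the part of these cell types in the members' values was not tested.

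Of the 43 members, 40 had an adjusted p, and 0 passed 0.05 per the authors' deposited table, against 0.529% of all 10963 genes with an adjusted p. At an unadjusted p under 0.05 there were 4 of the 40, or 10.0%, against 7.02% of all genes. These were Csnk1d, Dvl3 and Fzd6, which had higher values, and Axin1, which had a lower one. A fold change of at least 1.5 was seen for 5 of 40 members, or 12.5%, against 9.26% of all genes, and none of the 40 reached 2-fold (0). Log2 fold changes of the 40 members ran from -0.87 for Axin1 to 0.86 for Sfrp4, with 23 above and 17 below zero. The share above zero was 57.5%, against 46.8% of all genes, and the median was 0.05, against -0.02 for all genes. These shares lie close to the background, and nothing about the members as a group is read from them.

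**Figure D1:**
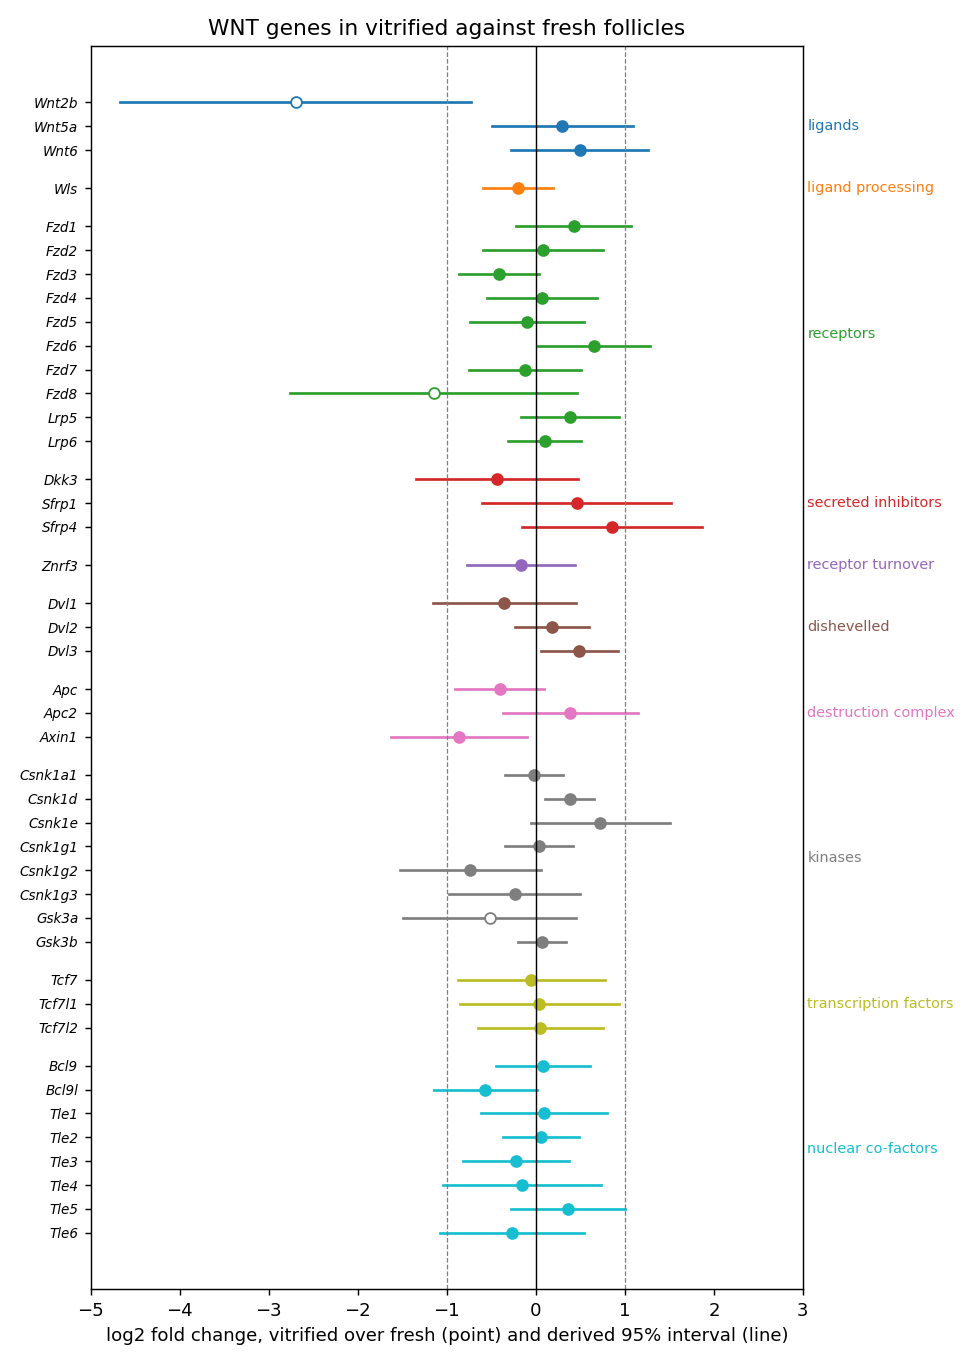
Log2 fold change of vitrified over fresh follicles for the 43 WNT genes, grouped by role: points are the deposited values, lines the derived 95% intervals, open circles genes with no adjusted p, and dashed lines a 2-fold change. Most intervals cross zero, and those of Csnk1d, Dvl3, Fzd6, Axin1 and Wnt2b do not.

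The ligands in the table were Wnt2b, Wnt5a and Wnt6, 3 of the 19 Wnt genes in the mouse annotation. The other 16, among them Wnt4, a ligand known for ovary development, were not analysed here. Wnt5a, which mainly signals without beta-catenin, had a total of 227 and a log2 fold change of 0.30 (95% interval -0.49 to 1.09) per the authors' deposited table. Wnt6 had a smaller total of 179 and a log2 fold change of 0.49 (-0.28 to 1.26) there. Neither interval lay within 2-fold, so a doubling of either ligand lies within its error. Wnt2b had the largest fold of any member, 6.49-fold lower per the authors' deposited table (p = 0.0072), on a total of only 36.5 over 12 libraries. Its log2 fold change of -2.70, per the authors' deposited table, has a derived interval of -4.67 to -0.73. The authors gave Wnt2b no adjusted p. When all 11806 genes were adjusted together, its adjusted p was 0.34 (Benjamini-Hochberg). Wls, the carrier that brings WNT ligands to the cell surface, had a total of 1688 and a log2 fold change of -0.20 (-0.59 to 0.19), per the authors' deposited table.

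Of the 10 frizzled genes in the annotation, 8 were in the table, and Fzd9 and Fzd10 were not analysed here. Fzd3 had the highest frizzled total, 2199 per the authors' deposited table, with a log2 fold change of -0.41 (-0.86 to 0.04, p = 0.074). Fzd6, with a total of 146, was 1.57-fold higher in value per the authors' deposited table (p = 0.044, adjusted p = 0.69). Its interval on the log2 scale was 0.02 to 1.28. Fzd1 and Fzd4, both known from the rodent ovary around ovulation, stood at 0.42 (-0.22 to 1.07) and 0.07 (-0.54 to 0.69) per the authors' deposited table. Fzd2, Fzd5 and Fzd7 lay between -0.12 and 0.08, and each of their intervals lay within 2-fold. Fzd8 had a total of 34.8 and no adjusted p, per the authors' deposited table, and its derived interval ran from -2.76 to 0.47. The co-receptor gene Lrp5 stood at 0.39 (-0.17 to 0.94) on the log2 scale and Lrp6 at 0.10 (-0.32 to 0.51) per the authors' deposited table. In all, 7 of the 9 receptors and co-receptors with an adjusted p had intervals within 2-fold, and Fzd1 and Fzd6 did not.

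Of the roles, secreted inhibitors had the highest median standard error among members with an adjusted p, at 0.51, while Wnt2b and Fzd8, which have none, stood at 1.00 and 0.82. Sfrp4, a decoy that binds WNT ligands, was 1.81-fold higher per the authors' deposited table (p = 0.096, adjusted p = 0.84). Its interval of -0.15 to 1.86 on the log2 scale holds both no change and a change beyond 3-fold. Sfrp1, of the same family, stood at 0.46 (-0.61 to 1.52) on a total of 77.7, per the authors' deposited table. Dkk3, a divergent member of the Dickkopf family, stood at -0.43 (-1.34 to 0.47), per the authors' deposited table. The derived standard errors of the 3 genes ran from 0.46 to 0.54, against a median of 0.33 over the 40 members. Znrf3, a ubiquitin ligase that removes frizzled receptors from the surface, stood at -0.17 (-0.78 to 0.44), per the authors' deposited table. Its partner Rnf43, and Porcn, which adds the lipid to WNT proteins, were not in the authors' deposited table and so were not analysed here.

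The dishevelled genes, which relay the signal from frizzled receptors, did not share a direction. Dvl3 was 1.40-fold higher per the authors' deposited table, with a log2 interval of 0.06 to 0.92 (p = 0.027, adjusted p = 0.58). Dvl2 stood at 0.19 (-0.23 to 0.60) and Dvl1 at -0.35 (-1.15 to 0.45), per the authors' deposited table. Dvl2 and Dvl3 had totals of 594 and 630, against 116 for Dvl1. Dvl2 shares 1151 of its 6298 exon bases with Acadvl on the opposite strand in GENCODE M21. Reads in that stretch cannot be told apart if counting ignored strand. Acadvl had a total of 836 and a log2 fold change of 0.20, per the authors' deposited table.

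Among the scaffolds of the destruction complex, Axin1 was 1.83-fold lower per the authors' deposited table, with a log2 fold change of -0.87 (-1.63 to -0.10, p = 0.026, adjusted p = 0.57). It lies on chromosome 17 from 26138688 to 26195811 in GRCm38. Its total was 140 per the authors' deposited table. Apc, the tumour suppressor that binds beta-catenin in this complex, stood at -0.41 (-0.91 to 0.09), and its relative Apc2 at 0.39 (-0.37 to 1.15), per the authors' deposited table. Axin2, a textbook target and feedback inhibitor of the pathway, was not in the authors' deposited table and so was not analysed here. Ctnnb1, which encodes beta-catenin and was chosen from the wider pathway list, had a total of 2122 and a log2 fold change of -0.08 (-0.39 to 0.24) per the authors' deposited table.

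The kinases held both the highest total and the lowest p of the members with an adjusted p. Csnk1a1, which starts the phosphorylation of beta-catenin, had a total of 4754 and a log2 fold change of -0.02 (-0.35 to 0.30) per the authors' deposited table. Csnk1d, a kinase of dishevelled and of clock proteins had a total of 1777 per the authors' deposited table. It lies on chromosome 11 from 120961749 to 120991330 in GRCm38. Csnk1d had a log2 difference of 0.38 (0.11 to 0.65), with p = 0.0063 and an adjusted p of 0.32 per the authors' deposited table. Csnk1e, the closest relative of Csnk1d, stood at 0.72 (-0.06 to 1.51) on a total of 108, per the authors' deposited table. The gamma kinase genes Csnk1g1, Csnk1g2 and Csnk1g3 stood at 0.03, -0.74 and -0.24, and of these Csnk1g2 had the lowest p at 0.068, per the authors' deposited table. Gsk3b, the kinase that completes the phosphorylation of beta-catenin, stood at 0.07 (-0.20 to 0.34), per the authors' deposited table. Its derived standard error of 0.14 was the smallest of all members. Gsk3a, with a total of 56.6 and no adjusted p, stood at -0.52 (-1.49 to 0.45), per the authors' deposited table.

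The transcription factors of the pathway showed the smallest differences of any role with several members. Tcf7l2 stood at 0.05 (-0.65 to 0.76), Tcf7l1 at 0.04 (-0.85 to 0.93) and Tcf7 at -0.05 (-0.87 to 0.77) per the authors' deposited table. All 3 intervals lay within 2-fold, but on totals of 84.1 to 236 they do not show equality. Lef1, the other factor of this family, was not in the authors' deposited table and so was not analysed here. Bcl9l, which joins beta-catenin to the nuclear protein pygopus, was 1.48-fold lower per the authors' deposited table (p = 0.055, adjusted p = 0.73). Its log2 interval was -1.15 to 0.01, while its relative Bcl9 stood at 0.08 (-0.45 to 0.61). The 6 TLE family genes ran from -0.27 for Tle6 to 0.36 for Tle5, with 3 higher and 3 lower, per the authors' deposited table. Tle6 is also a component of the subcortical maternal complex of the oocyte, and its interval was -1.07 to 0.54. Tle2, with the highest TLE total of 1042, stood at 0.06 (-0.37 to 0.48), per the authors' deposited table. Tle1 stood at 0.09, Tle3 at -0.22 and Tle4 at -0.15, per the authors' deposited table.

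Levels between genes were compared per kilobase of annotated exon, since longer transcripts give more reads. On this scale Csnk1a1 was highest at 453 per kb and Csnk1d next at 354, at the 89.5 and 86.8 percentiles of all genes with a length. Wls followed at 192, then Fzd3 at 172, Lrp5 at 170, Tle2 at 168 and Gsk3b at 159. The ligand Wnt6 reached 81.4 and Wnt5a 29.1 per kb, below their carrier Wls. Among the frizzleds Fzd4 came after Fzd3 at 81.3, and Fzd1, Fzd7, Fzd2, Fzd5 and Fzd6 lay between 45.0 and 30.3. Dvl3 and Dvl2 lay close together at 98.2 and 94.3, with Dvl1 at 23.2. The lowest members were Fzd8 at 5.82 and Wnt2b at 8.68 per kb. These levels are pooled over fresh and vitrified follicles and carry no error, so the order of close neighbours is a description only.

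**Figure D2:**
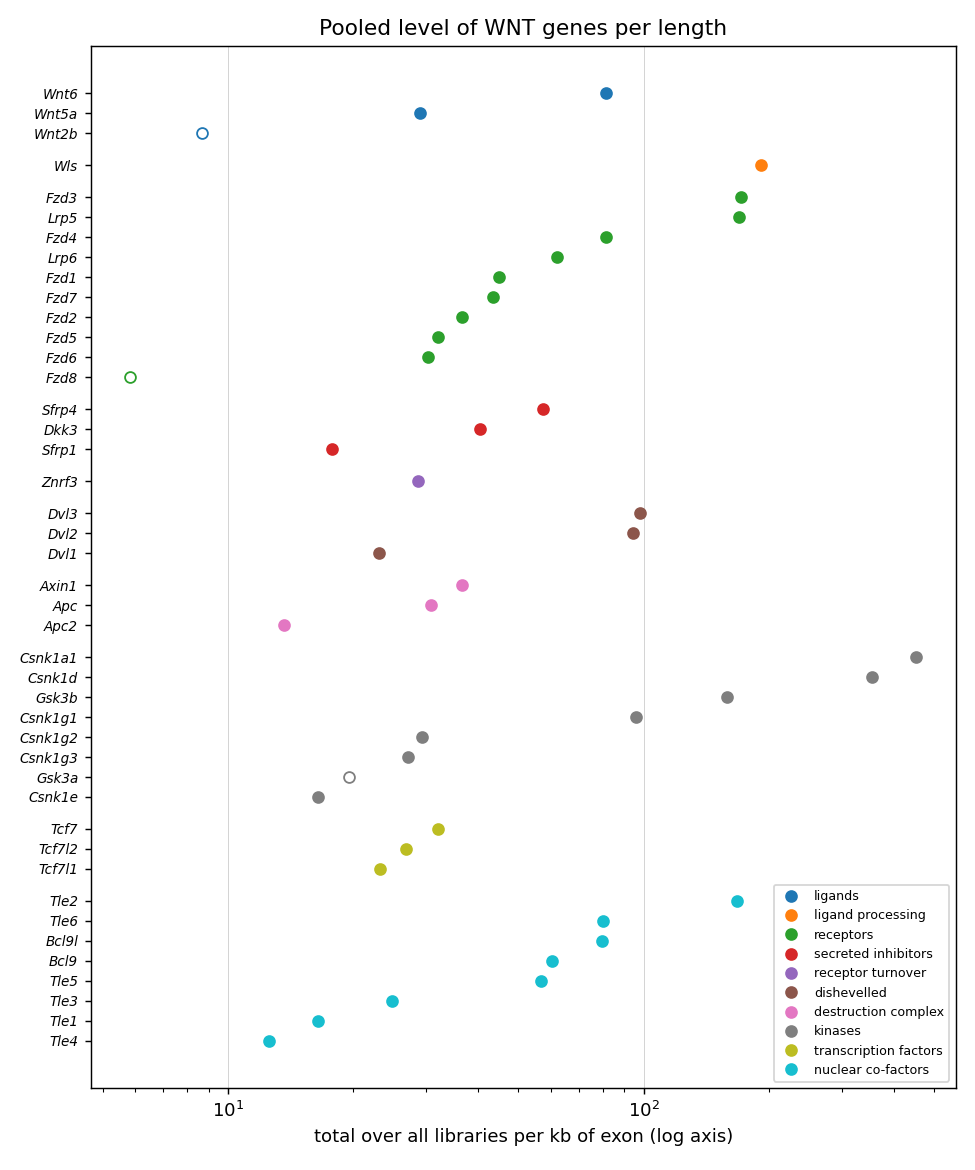
Total over the 12 libraries per kilobase of annotated exon for each WNT gene (log axis), ordered within its role, with open circles for genes that have no adjusted p. The kinases Csnk1a1 and Csnk1d lie highest at 453 and 354, and Fzd8 and Wnt2b lowest at 5.82 and 8.68.

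Intervals lay within 2-fold for 25 of the 40 members, or 62.5%, against 69.1% of all genes. All 8 members with a total above 1000 had intervals within 2-fold, as did 6 of 7 between 300 and 1000, all but Bcl9l. Of the 21 members between 100 and 300 only 9 did, or 42.9%, against 60.9% of all genes in that range. Below 100, 2 of 4 members did, against 13.0% of all genes. The median derived standard error of the members was 0.45 below 100, 0.38 from 100 to 300, 0.26 from 300 to 1000 and 0.20 above 1000. The members from 100 to 300 with wider intervals include Wnt5a, Wnt6, Fzd1, Fzd6, Sfrp4, Dkk3 and Axin1, for which a 2-fold change lies within the error. The median total of the 40 members was 227, against 307 for all genes with an adjusted p.

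**Figure D3:**
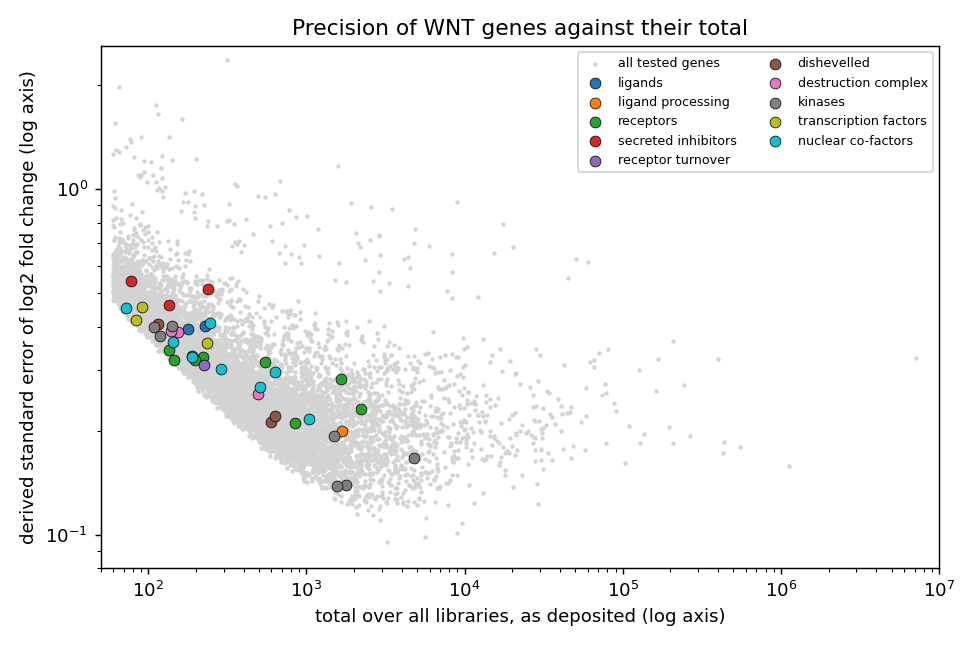
Derived standard error of the log2 fold change against the deposited total (both log axes) for all tested genes in grey and the WNT genes in colour by role. The 40 members lie within the cloud of all genes, and errors fall from 0.54 for Sfrp1 to 0.14 for Gsk3b.

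A wider list of 110 WNT pathway genes outside the symbol rule, 76 of them in the authors' deposited table, gave a like count. Of 70 tested genes 0 passed the threshold, 4 had an unadjusted p under 0.05 (5.71%), and 28 were higher and 42 lower, with a median log2 fold change of -0.05, per the authors' deposited table. Over all tested genes 0.529% passed, 7.02% had an unadjusted p under 0.05 and 46.8% were higher, with a median of -0.02, against 40.0% higher in this list. Rnf146, a ubiquitin ligase that degrades AXIN, had a log2 fold change of -0.43 (-0.80 to -0.06, adjusted p = 0.56) per the authors' deposited table. The small GTPase gene Rac1 stood at -0.63 (-1.19 to -0.07) and Lgr6, a receptor for R-spondins, at -0.77 (-1.51 to -0.04), per the authors' deposited table. Nfatc3, a calcium-regulated transcription factor, stood at 0.46 (0.04 to 0.87), per the authors' deposited table. Vangl1, of planar cell polarity, had the largest difference of the 70 tested genes of this list at -1.02 (-2.03 to 0.00), with p = 0.051, per the authors' deposited table.

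Genes known as WNT targets in one tissue or another were also read from a fixed list of 54. Of these, 23 were in the authors' deposited table and 21 were tested, and the rest were not analysed here. None passed the threshold (0), 2 had an unadjusted p under 0.05 (9.52%), and 7 were higher and 14 lower, with a median of -0.11. Beside the 0.529% called, the 7.02% at an unadjusted p under 0.05 and the 46.8% higher over all tested genes, 33.3% of these 21 were higher, and no direction is read from so few genes. Fst, the activin-binding protein follistatin, had a log2 fold change of -0.82 (-1.48 to -0.17, p = 0.013, adjusted p = 0.45) per the authors' deposited table. Tcf4, which despite its name is not a TCF7 family gene, stood at -0.33 (-0.61 to -0.05), per the authors' deposited table. Fst, Gja1, Nr5a2 and Cyp19a1 are also granulosa markers, and many of these genes have other regulators.

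**Figure D4:**
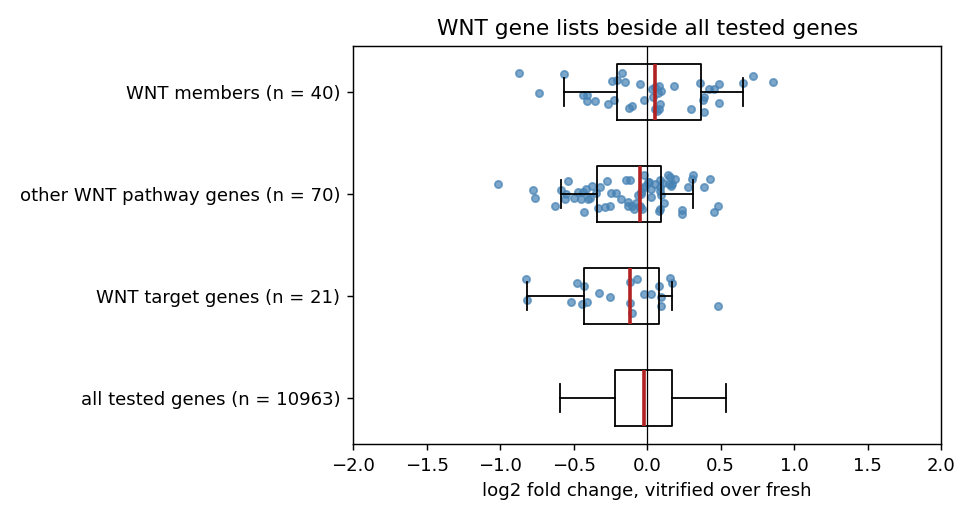
Log2 fold change of vitrified over fresh for the 40 tested WNT members, 70 other pathway genes, 21 target genes and all 10963 tested genes: points are genes (not drawn for all genes), boxes the quartiles, red lines the medians and whiskers the 5th and 95th percentiles. The medians are 0.05, -0.05, -0.11 and -0.02.

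Some WNT pathway genes are themselves targets of TCF and LEF factors, so the members' promoters were searched for the core letters CTTTGA of their sites. Both strands of the 250 bases before each RefSeq start (GRCm38.p6) were read. Of 25 members with an entry, 3 held a match, against 15.8% of all 27025 genes in that table. They were Fzd1, Gsk3a and Gsk3b, whose log2 fold changes were 0.42, -0.52 and 0.07, and they are shown because they are all the members with a match. Each is written 5′ to 3′ on the gene's strand, with the match, here the reverse complement, in capitals. It lies 242 bases before the start in Fzd1 (chr5:4758217-4758466, minus strand), 157 in Gsk3a (chr7:25237852-25238101, minus strand) and 77 in Gsk3b (chr16:38088751-38089000, plus strand). A match is a string of letters and not a known site, and the expression values do not bear on binding.
Fzd1: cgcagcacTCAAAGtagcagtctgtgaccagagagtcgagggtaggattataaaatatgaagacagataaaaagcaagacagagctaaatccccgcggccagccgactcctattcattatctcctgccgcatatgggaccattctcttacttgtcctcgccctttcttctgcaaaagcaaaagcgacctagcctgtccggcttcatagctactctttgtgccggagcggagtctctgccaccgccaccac
Gsk3a: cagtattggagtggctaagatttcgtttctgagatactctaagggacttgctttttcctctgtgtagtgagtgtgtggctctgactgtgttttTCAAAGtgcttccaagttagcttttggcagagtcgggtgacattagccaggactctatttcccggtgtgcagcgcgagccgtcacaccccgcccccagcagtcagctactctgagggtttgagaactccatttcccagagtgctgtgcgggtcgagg
Gsk3b: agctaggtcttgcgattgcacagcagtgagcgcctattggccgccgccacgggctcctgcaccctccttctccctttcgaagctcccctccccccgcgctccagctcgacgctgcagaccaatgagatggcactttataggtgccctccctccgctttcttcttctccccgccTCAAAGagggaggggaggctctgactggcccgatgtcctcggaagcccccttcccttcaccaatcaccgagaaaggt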

How the data were processed

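RNA of single follicles was measured with a Smart-seq library protocol, per the labels' protocols. Bowtie2, HISAT2, Partek, DESeq2 and mm10 appear in the submitters' processing notes. Their roles, the counting rule, strand and annotation are not stated there. Per the file headers, the authors deposited a total count, p-value, step-up adjusted p, signed fold change and log2 fold change per gene, used as given. Totals are treated as a deposited score, since only 0.237% are whole within 0.001. An adjusted p is missing for 843 genes with totals up to 59.44.

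Groups came from sample titles. Standard errors and 95% intervals were derived by taking each p as a two-sided normal test (Python 3.11.15, scipy 1.17.1). This step and the adjustment were tested on simulated data whose p-values came from the same normal formula. Such a test checks the arithmetic only and cannot show that the deposited p-values are of that kind. Exon lengths and shared 50-base windows came from GENCODE M21 (GRCm38), matching 99.4% of genes and all 43 members, Tle5 under its other name Aes. At most 9.52% of a member's windows occur in another gene.

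The members and lists were chosen with earlier results of these data known. Every member is named. By rule, intervals and p were given for members at an unadjusted p under 0.05, the lowest p of each role and members known in the ovary; other intervals were added after values were seen. From the wider lists, genes at an unadjusted p under 0.05 and Ctnnb1 are named. Vangl1, the theca markers with values, Fshr and Inhbb were chosen after their values were seen.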

Additional observations from a re-analysis of the deposited data

How the results depend on the processing

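The count of called genes stayed at 0 for the members, the other pathway genes and the target genes under each of 5 alternatives: a t distribution with 10 degrees of freedom, no filter on totals, a total of at least 120, centring on the median of all genes, and leaving out genes with at least 50% shared windows. With the t distribution 0 of all 10963 genes pass, against 58 in the authors' deposited table, so its count of 0 says nothing particular about the members. The shared-window setting removed no member and no target gene (40 and 21 stayed tested), so it could not test them. The lowest adjusted p of a member (Benjamini-Hochberg) was 0.327 with no filter, 0.278 at a total of at least 120 and 0.255 when centred. Dropping the filter, asking for a total of at least 120 and centring change the p-values little or not at all. Under them a count of 0 was likely beforehand. The members at an unadjusted p under 0.05 numbered 2 with the t distribution, namely Csnk1d and Axin1, and 5 with no filter, where Wnt2b joins the 4. Under the t distribution the log2 intervals of Dvl3 (-0.0024 to 0.98) and Fzd6 (-0.07 to 1.37) cross zero. The members' median ran from 0.04 with every member counted to 0.08 when centred, and was 0.06 without casein kinase 1 and GSK3 genes. Centring subtracts the median of all genes, -0.02. Of the members given an interval by rule, Tcf7l2 at 0.05 was the closest to zero, so none could change direction. Leaving out single follicles was not run, as the table holds no value per follicle. No paired analysis was possible because the deposited table holds no value per follicle.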

Other observations

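Tle5, Tle2 and Tle6 lie beside each other on chromosome 10 in GRCm38, from 81559488 to 81601073, and only 58 bases separate the facing ends of Tle2 and Tle6. Their log2 fold changes per the authors' deposited table were 0.36, 0.06 and -0.27, each with an interval across zero. Exons of 13 members overlap another annotated gene on the opposite strand. For Csnk1d the overlap is 63 bases with Gm28192 and for Fzd6 it is 152 bases with Gm26704, and Fzd5 shares 1233 bases with Gm38058. If counting ignored strand, reads in these stretches cannot be assigned to either gene.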
